A study of Sus scrofa with 2 samples.

Results

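The genes described are 10 transcription factors that act in the self-renewal of spermatogonial stem cells: ETV5, ETV4, BCL6B, LHX1, POU3F1, ID4, EGR2, EGR4, TAF4B and SALL4. They were chosen by name, and every deposited peak that the authors assigned to one of them was taken, whatever its class. This gave 8 peaks of the 10273 in replicate 1 and 5 of the 7301 in replicate 2, out of a table of 16509 protein-coding genes with a symbol. The peaks came from CUT&Tag for ZBTB16 (PLZF) in wild-type (WT) immature spermatogonia of pig testis, with 100000 cells in each of 2 libraries that form 1 group. CUT&Tag tethers a transposase to an antibody-bound chromatin protein and sequences the DNA fragments it releases. The labels give no age or treatment for them and no second genotype, and leave unsaid whether different pigs or cultures supplied them, so no mean, SD or p-value over the libraries is given. The IgG control that the labels' protocols describe was not analysed here, so no signal from an unspecific antibody was subtracted here from any value below. Whether the authors' peak calling used that control was not given. All positions are on Sscrofa11.1.

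Spermatogonial stem cells are kept in their niche by GDNF, a Sertoli cell ligand that signals through the receptor RET and its co-receptor GFRA1, and by FGF. In mouse germ cells these signals raise a set of transcription factors. ETV5 and ETV4 are ETS factors of the PEA3 group, BCL6B is a BTB zinc finger repressor, LHX1 is a LIM homeodomain factor, POU3F1 is a POU domain factor, and EGR2 and EGR4 are early growth response zinc finger factors. ID4 is an inhibitor of basic helix-loop-helix factors and a marker of mouse stem cells, TAF4B is a germ cell form of a TFIID subunit, and SALL4 is a zinc finger factor that works with the NuRD co-repressor and is known to bind ZBTB16. ZBTB16 is itself needed for the maintenance of the stem cell pool in the mouse.

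ETV5, ETV4, ID4, EGR2 and TAF4B each had a promoter peak in both libraries, BCL6B had a single peak in replicate 1 only, and LHX1, POU3F1, EGR4 and SALL4 had none. The promoter class of the authors' annotation covered up to about 3 kb upstream of the transcription start site (TSS). This made 5 of 10 with a promoter peak in both, where the share over all 16509 genes was 20.8%. Counting peaks of any class, the same 5 were found in both libraries, against 28.2% of all genes, with 6 of 10 in replicate 1 (all genes 44.8%) and 5 of 10 in replicate 2 (all genes 34.0%). Each library taken alone gave the same 5 promoters, against 32.8% of all genes in replicate 1 and 24.9% in replicate 2. The genes were listed with results of these data known, so the distance of their share from that of all genes was not tested. The count rests in part on weak peaks: it was 3 (ETV5, EGR2 and TAF4B) when only peaks of at least 4-fold enrichment were kept, against 18.5% of all genes.

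Every fold enrichment, as deposited by the authors, compares a peak's summit with the background that the peak caller took for it. Whether that background came from the same library or from a control was not given. The number of fragments at the summit and that background were recovered from the deposited fold and p-value of each peak. Fragments carry counting error, given as an exact 95% Poisson interval that covers nothing else. The median promoter peak had a fold of 5.33 from 19 fragments in replicate 1 and of 5.25 from 16 fragments in replicate 2.

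**Figure D1:**
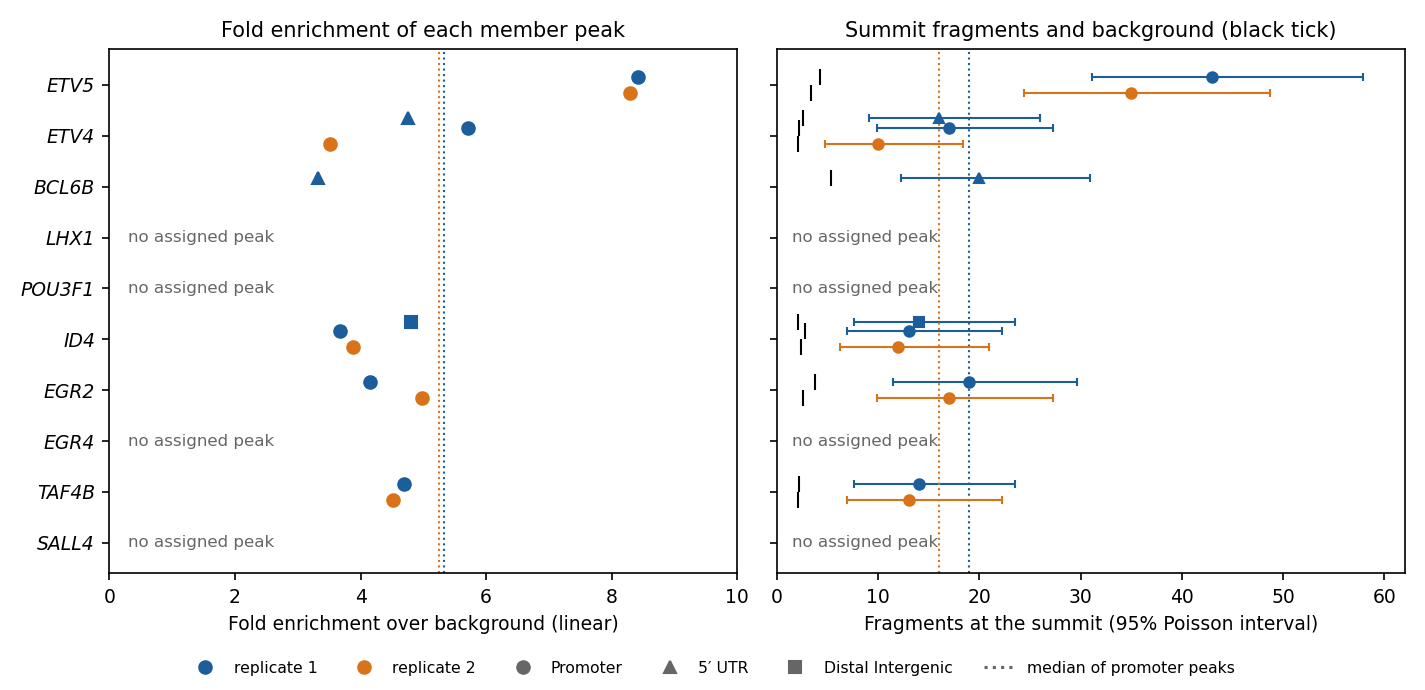
Fold enrichment (left) and fragments at the summit with exact 95% Poisson intervals (right) of every peak assigned to the 10 genes. Blue is replicate 1 and orange replicate 2, circles are promoter, triangles 5′ UTR and the square distal intergenic peaks, black ticks the background in fragments, and dotted lines the median promoter peak of each library. ETV5 lies above the medians in both libraries at 8.42-fold and 8.29-fold, while of the other shared promoter peaks only ETV4 in replicate 1 lies above the median by fold, and only EGR2 in replicate 2 by fragments.

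ETV5, the ETS factor without which the mouse loses its spermatogonial stem cells, had the strongest signal of the 10 in both libraries. Its promoter peak (chromosome 13, 123930074 to 123930653 in replicate 1 and 123929885 to 123930529 in replicate 2) held 43 fragments at the summit in replicate 1 (interval 31.1 to 57.9) and 35 in replicate 2 (24.4 to 48.7). The background that the peak caller took there was 4.23 and 3.34 fragments, higher than at 88.5% and 88.3% of promoter peaks. Its fold of 8.42 exceeded that of 95.2% of the promoter peaks of replicate 1, and its fold of 8.29 that of 96.2% in replicate 2. By the lower of its folds ETV5 took place 101 among the 3439 genes with a promoter peak in both libraries. The lower bounds of both ETV5 intervals lay above the point values of every other peak assigned to the 10 genes, the highest of which was 20 fragments.

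The ETV5 summits, lying 9 bp (replicate 1) and 12 bp (replicate 2) before the TSS, were 3 bp apart. Only 8.18% of the 4179 promoter peaks of replicate 1 that overlapped a replicate 2 peak had a smaller gap between the summits, and the median gap was 93 bp. The peaks were of ordinary width, 580 and 645 bp against medians of 593 and 527 bp. The gene is 56.9 kb long, and no second peak was assigned to it. The nearest annotated neighbour, DGKG, lies 26.0 kb beyond the TSS end of ETV5, so no other listed gene shares this promoter.

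ETV4, the closest relative of ETV5 among the 10, had a promoter peak in both libraries at very different strength. In replicate 1 (chromosome 12, 19531124 to 19531750) it held 17 fragments (9.90 to 27.2) for a fold of 5.72, above 60.1% of promoter peaks. In replicate 2 (19531239 to 19531581) it held 10 fragments (4.80 to 18.4) for a fold of 3.52, above only 1.71% of promoter peaks, with a −log10 q of 1.87. By fold the replicate 1 value was thus above the middle of its list and the replicate 2 value near the threshold of its list, yet the fragment intervals overlapped. By fragments the replicate 1 peak was below the middle too, above 38.7% of promoter peaks. Both peaks spanned the TSS, with summits 47 and 148 bp upstream. A second ETV4 peak, in the 5′ UTR class, lay 13.2 kb inside the gene, 4.28 kb downstream of the start of a shorter transcript (19544597 to 19545068). It was found in replicate 1 only, with 16 fragments and a fold of 4.75.

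ID4 had a weak promoter peak that recurred closely. It held 13 fragments (6.92 to 22.2) in replicate 1 and 12 (6.20 to 21.0) in replicate 2, with folds of 3.68 and 3.89 that exceeded only 4.58% and 6.91% of promoter peaks. Both peaks (chromosome 7, 15281222 to 15281591 and 15281298 to 15281591) ended at the same base, 56 bp past the TSS, and their summits lay 210 and 159 bp upstream of the TSS. A distal intergenic peak 26.8 kb upstream (15254328 to 15254971, 14 fragments, 4.81-fold) was stronger by fold than the promoter peak but was present in replicate 1 only. ID4 stands in a sparse region: its nearest annotated neighbour, a lncRNA, is 21.2 kb away and the nearest other protein-coding gene 189 kb away.

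EGR2, an immediate early factor induced by growth signals, had a narrow peak just upstream of its start. In replicate 1 (chromosome 14, 66288980 to 66289252) it held 19 fragments (11.4 to 29.7) for a fold of 4.16, and in replicate 2 (66288972 to 66289293) 17 fragments (9.90 to 27.2) for a fold of 4.97. By fragments the peak was of median height, above 49.8% of promoter peaks in replicate 1 and 55.1% in replicate 2. By fold it was above 14.8% and 40.4%, as the background of 3.81 and 2.62 fragments was higher than at 83.3% and 70.6% of promoter peaks. At 273 bp the replicate 1 peak was among the narrowest promoter peaks, wider than 0.736% of them. It lay wholly within the replicate 2 peak, and the summits were 28 bp apart.

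EGR2 was also the only one of the 5 shared promoter peaks that did not span the TSS, while 82.7% of all promoter peaks in replicate 1 and 82.4% in replicate 2 did. Its summits were 480 and 508 bp upstream of the start of the transcript to which the authors assigned it. The gene table gives EGR2 a longer span, from 66280665 to 66291308, whose upper end lies 2.18 kb beyond the replicate 1 summit. By that span the peak falls inside the gene, and the files do not tell which start is used in these cells. A lncRNA lies 113 bp past the span.

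TAF4B, needed in the mouse for the long-term upkeep of the germline, had the widest of the shared peaks and the only summits downstream of the TSS. The peaks (chromosome 6, 110855308 to 110856150 and 110855440 to 110856172) were 843 and 733 bp wide, wider than 82.6% and 79.6% of promoter peaks. They held 14 fragments (7.65 to 23.5) and 13 fragments (6.92 to 22.2), with folds of 4.69 and 4.52 that exceeded 30.2% and 25.1% of promoter peaks. The summits lay 64 and 211 bp downstream of the TSS, and their gap of 147 bp was the largest of the 5. TAF4B is the longest of the 10 genes at 117 kb, and no peak was assigned to the rest of it.

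**Figure D2:**
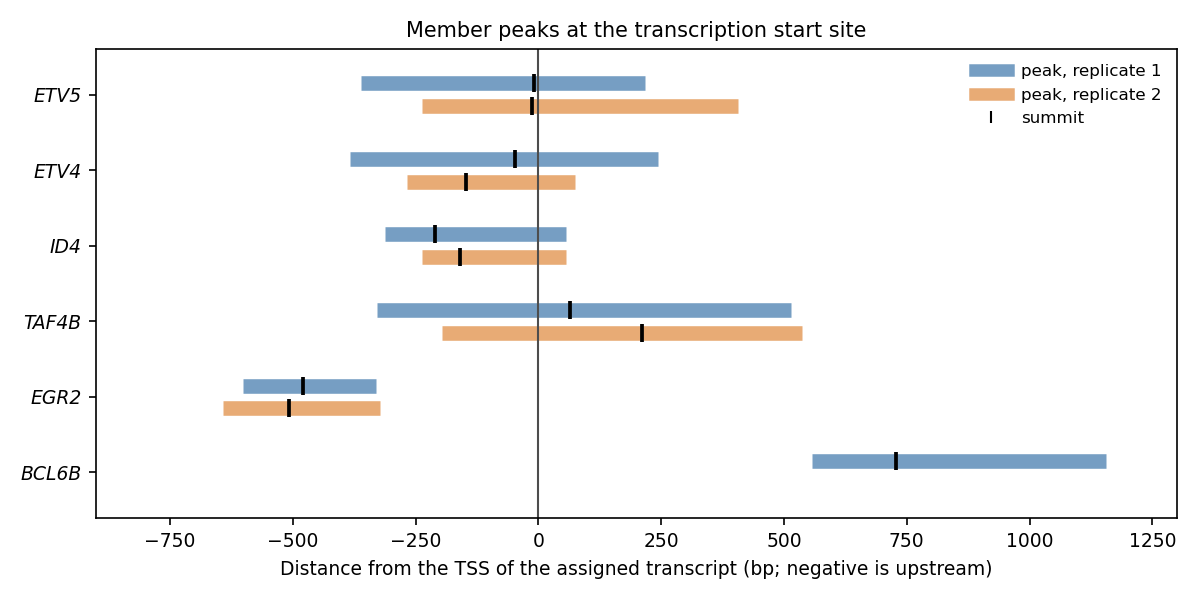
Extent of the peaks (bars) and their summits (black ticks) against the TSS of the transcript the authors assigned, in bp, with upstream to the left. Blue is replicate 1 and orange replicate 2, and peaks whose nearest edge is over 1 kb from the TSS are left out. ETV5, ETV4, ID4 and TAF4B peaks span the TSS in both libraries, EGR2 lies upstream of it, and the BCL6B peak of replicate 1 lies downstream.

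Between the libraries, the 5 promoter peaks divided their fragments much as shared promoter peaks did in general. Of the summit fragments of all 4179 such peaks, 56.9% were in replicate 1. The share was 55.1% at ETV5 (exact binomial 95% interval 43.4 to 66.4), 63.0% at ETV4 (42.4 to 80.6), 52.0% at ID4 (31.3 to 72.2), 52.8% at EGR2 (35.5 to 69.6) and 51.9% at TAF4B (31.9 to 71.3). All 5 intervals contained the overall share, including that of ETV4, whose folds differed by 2.20. Only peaks called in both libraries enter, which narrows the spread, and intervals this wide would not show a modest difference.

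Of the 8 replicate 1 peaks, 5 shared at least 1 bp with a peak of replicate 2, against 53.2% of the whole list. They were all 5 promoter peaks, where 66.9% of all promoter peaks did so. Among promoter peaks with 13 to 20 fragments, a range that holds all of them but ETV5, the share was 58.1%. Among those with at least 27 fragments, as at ETV5, it was 96.0%. None of the 3 peaks outside promoters (BCL6B, the inner ETV4 peak and the distal ID4 peak) did, where the share over all such peaks was 32.0%, and 44.8% among those with 14 to 20 fragments. With 5 and 3 peaks these counts are a description.

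**Figure D3:**
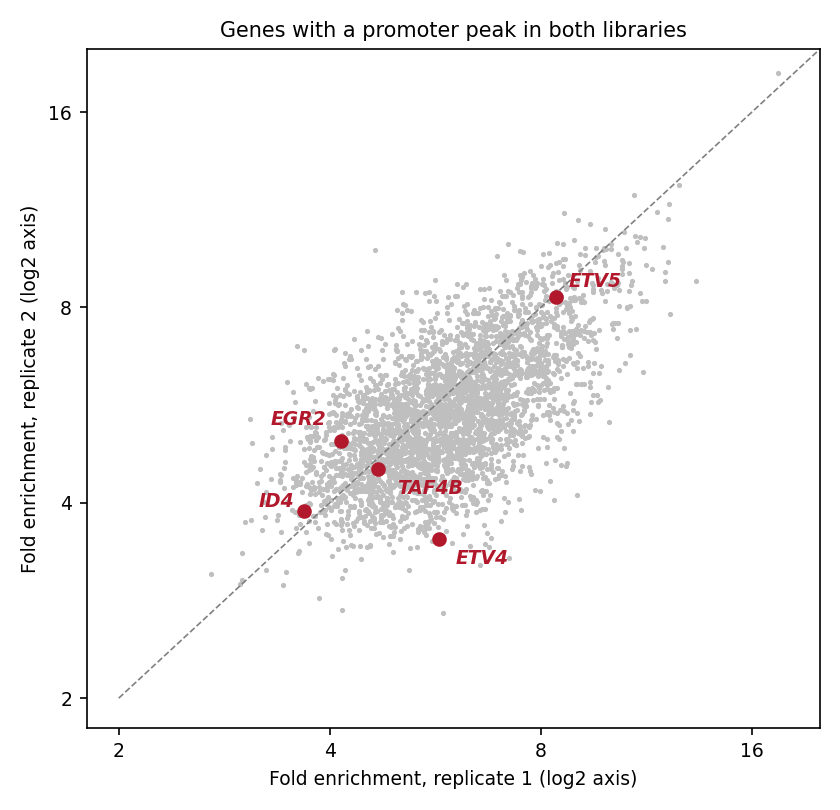
Fold enrichment of the strongest promoter peak of each of the 3439 genes with one in both libraries, replicate 1 against replicate 2, on log2 axes with the line of equality dashed. The self-renewal factors are in red. ETV5 lies on the line near the upper end, ID4 at the lower end, and ETV4 below the line at 5.72-fold and 3.52-fold. By the lower of their folds, EGR2 and TAF4B exceed 15.1% and 27.7% of these genes.

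BCL6B, a target of GDNF signalling in cultured mouse germ cells, had a 5′ UTR peak in replicate 1 only (chromosome 12, 52427963 to 52428561), with its summit 729 bp downstream of the TSS. It held 20 fragments (12.2 to 30.9), more than 54.5% of promoter peaks, but its background of 5.32 fragments was above that of 95.7% of them, which gave a fold of 3.33. The gene lies in a dense region, with SLC16A11 lying 1.38 kb beyond its end. Of 6 peaks within 100 kb of BCL6B in replicate 1 and 3 in replicate 2, the nearest in replicate 2 was a 5′ UTR peak of the transporter gene SLC16A13, 2.33 kb beyond the end of BCL6B (4.85-fold, 19 fragments).

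LHX1, POU3F1, EGR4 and SALL4 had no assigned peak in either library, as did 49.3% of all genes. None of the 4 had a peak of any gene within 3 kb, while the other 6 had one in both libraries, against 36.1% of all genes. For BCL6B in replicate 2 that peak was the one of SLC16A13. SALL4 was the most isolated, with no peak within 100 kb in either library: the nearest was 108 kb away in replicate 1 and 282 kb away in replicate 2, both assigned to NFATC2. EGR4 had its nearest peaks 57.5 kb away in both libraries, at the promoter of PRADC1. POU3F1 had its nearest peak 31.3 kb away in replicate 1, at the promoter of UTP11, and 81.0 kb away in replicate 2.

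LHX1 lies 4.23 kb from AATF, a gene of transcription and ribosome assembly, whose promoter peak in replicate 1 had a fold of 7.49 from 27 fragments (17.8 to 39.3). No replicate 2 peak overlapped it, although 96.0% of the promoter peaks of replicate 1 with at least 27 fragments had such a partner. The nearest replicate 2 peak to LHX1 was 203 kb away. The weakest listed peak held 7 fragments in replicate 1 and 6 in replicate 2. Weaker signal at these 4 genes would not be listed, so binding there was not detectable at this depth, which does not show that it is absent.

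The paralogues of the 10 genes were set beside them: ETV1, BCL6, 7 LHX genes, POU3F2 to POU3F4, ID1 to ID3, EGR1 and EGR3, TAF4, and SALL1 to SALL3. Of these 21, 2 had a promoter peak in both libraries (9.52%, all genes 20.8%), namely ETV1 and EGR1. An assigned peak of any class in both was found at 6 of the 21 (all genes 28.2%), and 11 had no assigned peak (all genes 49.3%). Among the 6, POU3F3 and SALL3 had peaks at different sites in the 2 libraries, with no overlap. Those of POU3F3 lay 383 kb from the TSS in replicate 1 and 11.5 kb in replicate 2. Those of SALL3 lay 566 kb and 4.93 kb from it. ETV1, the third PEA3 factor, had peaks of 4.88-fold from 20 fragments and 4.24-fold from 17 fragments, with summits 1147 and 1328 bp upstream (chromosome 9, 83420328 to 83420836 in replicate 1). All 3 PEA3 factors therefore had a promoter peak in both libraries. EGR1 had 42 fragments in replicate 1 (30.3 to 56.8) and 26 in replicate 2 (17.0 to 38.1), against 43 and 35 at ETV5, with folds of only 4.20 and 4.21.

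Promoter peaks at BCL6 (5.06-fold), POU3F2 (3.96-fold) and SALL2 (4.49-fold) were in replicate 1 only. ID1 had a shared distal peak 24.2 kb upstream in replicate 1 (4.44-fold and 6.20-fold), and LHX6 a shared exonic peak (6.61-fold and 5.21-fold). ID2 and ID3, EGR3, LHX2 and SALL1 were among the genes with none. The difference in share between the 10 genes and their paralogues was not tested.

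Partner proteins were counted by the factor they serve. Of 13 NuRD subunits, the co-repressor that SALL4 recruits, 7 had a promoter peak in both libraries (53.8%, all genes 20.8%). SALL4 itself had none. The strongest were the histone-binding subunit RBBP4 (7.05-fold and 6.61-fold), the deacetylases HDAC2 (6.49-fold and 6.72-fold) and HDAC1 (6.27-fold and 6.63-fold), and the scaffold GATAD2B (6.28-fold and 7.43-fold). CHD3, MBD2, MBD3, MTA1 and RBBP7 had no assigned peak. These subunits serve many repressors other than SALL4.

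Of 6 factors through which growth signals induce EGR genes, 3 carried promoter peaks in both libraries (all genes 20.8%). These were ELK1, an ETS factor (9.40-fold and 9.12-fold), MKL1 (MRTFA), an actin-regulated cofactor of SRF (8.58-fold and 7.00-fold), and SRF itself (3.87-fold and 2.85-fold). Of the EGR corepressors, NAB2 had one (4.80-fold and 3.88-fold) and NAB1 had no peak. Of the 3 E proteins that ID factors sequester, TCF3 had shared peaks (5.67-fold and 6.08-fold), and TCF4 had a promoter peak in each library but at different promoters of the gene. Of 5 cofactors of LHX1, SSBP2 (6.86-fold and 5.18-fold) and SSBP4 (3.43-fold and 2.99-fold) had one in both, and LDB1 had no peak. None of 3 corepressors listed for BCL6B had one in both, and NCOR1 had one in replicate 1 only.

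Of 15 TFIID subunits other than TAF4 and TAF4B, only TBP, the TATA-binding protein, had a promoter peak in both libraries (3.57-fold and 3.87-fold). Across all genes the share with one was 20.8%. No assigned peak was found at 9 of the 15, where the share over all genes was 49.3%. TAF11, TAF13 and TAF9B had a promoter peak in replicate 1 only. TAF4B thus had higher folds than TBP, the only other TFIID gene counted with a promoter peak in both, and TAF4 had no promoter peak. TBP held 11 fragments (5.49 to 19.7) in replicate 1 and 9 (4.12 to 17.1) in replicate 2. Both intervals overlapped those of TAF4B, so the order of these 2 genes is not resolved. Of 23 ETS factors other than ETV4 and ETV5, 4 had a promoter peak in both libraries (17.4%, all genes 20.8%). They were ELK1, ETS2 (7.67-fold and 6.38-fold), ELF2 (5.24-fold and 4.83-fold) and ETV1.

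Upstream of the factors, promoter peaks in both libraries were found at 4 of 33 genes of GDNF and FGF signalling (12.1%, all genes 20.8%). Among them were the kinases YES1 (7.14-fold and 5.57-fold) and MAP2K1 (5.49-fold and 6.86-fold) and the FGF receptor adaptor FRS2 (4.24-fold and 5.44-fold). GDNF and FGF2, the ligands, were among the 13 with no assigned peak (all genes 49.3%). The receptor genes RET and GFRA1 had one in at least 1 library. Counting any class, 8 of the 33 had a peak in both libraries, against 28.2% of all genes. Of 24 other genes of undifferentiated spermatogonia in the table, 1 had a promoter peak in both libraries (4.17%, all genes 20.8%). It was the piRNA pathway gene PIWIL4, at 4.15-fold and 4.47-fold. No peak was assigned to 18 of the 24 (all genes 49.3%), among them ZBTB16, NANOS2 and LIN28A. Of 4 genes of differentiating spermatogonia none had a promoter peak in both, and 2 had no assigned peak. KIT had a promoter peak in replicate 2 only, and an assigned peak of any class in both libraries.

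**Figure D4:**
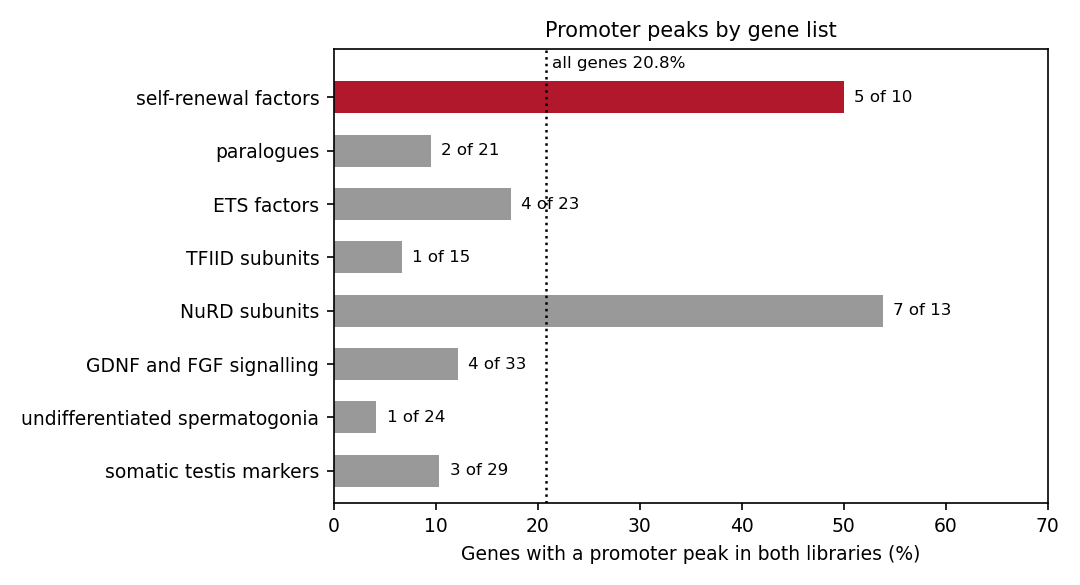
Share of the gene lists of 10 or more genes with a promoter peak in both libraries, in percent, with the count beside each bar and the share of all genes as the dotted line at 20.8%. The self-renewal factors (red, 5 of 10) and the NuRD subunits (7 of 13) lie above that line and the other lists drawn below it. Lists of 2 to 6 genes are left out, of which the LHX1 cofactors (40.0%), EGR corepressors and EGR inducers (50.0% each) and E proteins (66.7%) also lay above it, and no list was tested.

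Markers of the somatic cells that a testis preparation could hold were counted in the same way. Of 29 markers of Sertoli, Leydig, peritubular, macrophage and endothelial cells, 3 had a promoter peak in both libraries (10.3%, all genes 20.8%): KITLG, TAGLN and KDR. No assigned peak was found at 4 of 8 Sertoli markers (SOX9 and AMH among them) and 3 of 6 Leydig markers (STAR among them). The same held for 4 of 5 peritubular markers (ACTA2 among them), 3 of 5 macrophage and 3 of 5 endothelial markers. Across all genes the share without a peak was 49.3%. Other markers, such as WT1, GATA4, INSL3 and NR5A1, had an assigned peak in at least 1 library. A ZBTB16 peak at a gene does not measure its expression, so the labelled cell type cannot be checked against its markers with these files, and the part of other cells in the peaks above was not tested.

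The genes whose promoter peaks were nearest to those of ETV5 in log2 fold over the 2 libraries were GLRX5 (8.44-fold and 8.32-fold), TTC32 (8.41-fold and 8.37-fold), CCND3 (8.55-fold and 8.32-fold), EIF5A (8.56-fold and 8.33-fold) and LYPD4 (8.47-fold and 8.46-fold). They were ranked by Euclidean distance, from 0.0065 for GLRX5 to 0.031 for LYPD4. Their fragments differed more than their folds, from 31 at TTC32 to 72 at EIF5A in replicate 1, against 43 at ETV5.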

How the data were processed

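Each of the 2 libraries had its own deposited peak list, on Sscrofa11.1 according to the submitters' processing notes. The software that mapped reads, called peaks and annotated them, its control and the sequencing depth were not given in the sources used here. Per the file headers, the authors gave each peak a score, a fold enrichment (a linear ratio), the −log10 of a p-value and of a q-value, a summit and 1 assigned gene with its class and distance to the TSS. The deposited score was 10 times the −log10 q-value and was not used. The lowest −log10 q-value was 1.31 in both lists.

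Fragments and background per peak were solved from the Poisson tail p and fold = (fragments + 1)/(background + 1), to a relative tolerance of 1e-05, for 100% of peaks in both lists. The solver was tested on simulated data, where 100% of 500 peaks were recovered. These were made with the same formula, so that result checks only the solver. Overlap needed 1 bp. Genes were the 16509 protein-coding symbols other than LOC numbers in the RefSeq table for Sscrofa11.1. MRTFA, MRTFB and TBXT were matched by older symbols. NANOS3, MAGEA4 and SOHLH2 were not matched and were left out.

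The members and lists were chosen with earlier results of these data known. Named are all 10 members, the paralogues with a promoter peak in both libraries, up to 4 such genes per other list by the lower fold, and the 5 genes nearest to ETV5 in log2 fold. Other genes were named after their values were seen, and 1 gene that the rule would name is not reported here. No group comparison or test was possible with 1 group. A planned count of sequence motifs was not run, as no genome sequence was used here. Alternatives were stricter fold or q, equal list lengths, a narrower promoter, any nearby peak, other overlaps, other rankings and each library alone. The software was Python 3.11.15 with scipy 1.17.1, pandas 2.3.3, numpy 2.4.6 and, for figures, matplotlib 3.10.9.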

Additional observations from a re-analysis of the deposited data

How the results depend on the processing

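No paired analysis was possible because the libraries form 1 group. Promoter peaks in both libraries, and assigned peaks of any class in both, were found at 5 of the 10 genes. Both counts, and the 5 genes with overlapping peaks, became 3 with peaks of at least 4-fold (all genes 18.5% for promoters and 24.4% for any class). The first 2 also became 3 with a −log10 q of at least 3 (all genes 18.4% and 23.7%), and 3 of 10 for any class is near that share. ETV4 and ID4 were lost each time. With replicate 1 cut to the length of replicate 2 the promoter count was 4, without ID4, against 19.2% of all genes. With any peak within 3 kb it was 6, where BCL6B entered through a peak of SLC16A13 in replicate 2, against 36.1% of all genes. With either library left out the promoter count was 5 and the count for any peak 5 to 6. Reciprocal overlap of 50% and summits within 200 bp kept the overlap count at 5. Ranked by −log10 p, percentiles among promoter peaks moved by more than 1 SD of the 2 libraries' percentiles for that gene, used only as a limit, to 96.0 for ETV5 in replicate 1, 6.88 and 10.1 for ID4 and 25.8 for TAF4B in replicate 1. Ranked by fragments they moved to 15.0 and 18.2 for ID4, 49.8 for EGR2 in replicate 1 and 21.0 for TAF4B in replicate 1. Of 35 alternative values 22 stayed within the limits. The limit was wide where the libraries differed, so large moves stayed within it. ETV4 in replicate 1 went from 60.1 by fold to 51.3 by −log10 p and 38.7 by fragments. EGR2 in replicate 1 went from 14.8 by fold to 30.5 by −log10 p. Fragments of 10 to 19 at 4 of the 5 promoters limit every value but that of ETV5.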
